A study of Mus musculus with 8 samples.

Results

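The immunoproteasome and peptide loading genes are 10 genes that prepare peptides for display on MHC class I molecules. They were chosen by name from what their products do, with earlier results of these data known. They comprise the inducible catalytic subunits Psmb8, Psmb9 and Psmb10, the proteasome activator subunits Psme1 and Psme2, the peptide transporter subunits Tap1 and Tap2, the peptide editors Tapbp and Tapbpl, and the trimming enzyme Erap1. All 10 were found once each among the 55401 genes of the deposited count table, and all 10 were among the 17470 genes with enough counts to be tested.

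RNA-seq was run on bone marrow-derived macrophages (BMDM), which are macrophages grown from mouse bone marrow in culture, in 4 groups of 2 libraries each. The KO groups came from Lyz2-Cre-Mettl3fl/fl mice, which carry a floxed allele of the RNA methyltransferase gene Mettl3 and a Cre recombinase under the Lyz2 promoter, active in myeloid cells. The WT groups came from Mettl3fl/fl mice, which carry the same floxed allele and, as labelled, no Cre, so that loss of Mettl3 and presence of Cre cannot be told apart. In each genotype, one group received LPS at 50 ng/ml overnight followed by nigericin at 10 µM for 3 h, here called stimulated, and the other received PBS. LPS is a bacterial ligand of a Toll-like receptor, and nigericin lets potassium out of the cell, which triggers the NLRP3 inflammasome. No group received either agent alone, so their parts in a response cannot be told apart. The samples' labels give 3 h of nigericin, whereas the text on the series also names 1 h. The age of the mice is not stated in the labels. Nor do they say that a group's 2 libraries are from separate animals or cultures, so the spread behind each p-value is that between libraries and may be technical.

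The constitutive proteasome cuts proteins with the catalytic subunits Psmb5, Psmb6 and Psmb7. Interferons and other inflammatory signals induce Psmb8, Psmb9 and Psmb10, which take the places of Psmb5, Psmb6 and Psmb7 in newly assembled particles and give the immunoproteasome, with a higher output of peptides that fit class I molecules. Psme1 and Psme2 form a ring that caps the proteasome core, Tap1 and Tap2 carry the peptides into the endoplasmic reticulum, Erap1 trims their amino ends, and Tapbp and Tapbpl help class I molecules to bind peptides of high affinity. Macrophages use this machinery when they present antigen to CD8+ T cells.

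Library totals lay between 55032057 and 65487739 counts. Mettl3, the targeted gene, was at 9.08 and 7.87 CPM (counts set on one scale of library size) in stimulated KO libraries and 28.2 and 23.4 CPM in stimulated WT libraries, and at 5.64 and 6.33 CPM in KO libraries with PBS and 13.6 and 13.3 CPM in WT libraries with PBS. It was lower in KO by 1.61 ± 0.14 on the log2 scale after stimulation (SE, n = 2 against 2, edgeR adjusted p = 0.00283) and by 1.17 ± 0.14 with PBS (adjusted p = 0.0143), the second call being lost without any 1 of the 4 PBS libraries (adjusted p up to 0.0805). All 10 macrophage markers listed were detected, with Csf1r between 3505 and 4970 CPM in every library. Of the markers of other cell types, Flt3, Ly6g and Cd3e had 0 counts in all 8 libraries, while others were present, among them Col1a1 at 44.4 to 119 CPM, Cd4 at 5.10 to 20.8 CPM and Igkc at 2.12 to 31.6 CPM.

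Psmb8, Psmb9, Tap1 and Tap2 lie together in the class II region of the major histocompatibility complex on chromosome 17, and Tapbp lies near it. In the GRCm38 assembly with GENCODE M21 gene models, Psmb9 lies at chr17:34181987-34187764 on the minus strand, Tap1 at chr17:34187553-34197225, Psmb8 at chr17:34197721-34201454 and Tap2 at chr17:34203527-34216321, the last 3 on the plus strand. Tapbp lies at chr17:33915899-33929292 on the plus strand. The others are dispersed, with Psme1 at chr14:55578123-55581529 (plus strand) and Psme2 at chr14:55587441-55591113 (minus strand) as near neighbours, Psmb10 at chr8:105935735-105938444 (minus strand), Tapbpl at chr6:125223933-125231860 (minus strand) and Erap1 at chr13:74639568-74693201 (plus strand).

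The 10 genes all rose with stimulation, and the RefSeq promoter windows of GRCm38.p6 were searched on both strands for 3 short motifs. A window ran from 250 bases before to 50 bases after the start of a gene, and 8 of the 10 genes had one, the exceptions being Tap2 and Tapbpl. The motifs were an interferon-stimulated response element (ISRE) written as GAAA, any 2 bases and GAAA, found in 3.44% of all 32851 windows, a gamma-activated site (GAS) written as TTCNNNGAA, found in 8.3%, and an NF-kB motif written as GGGA, any base, TT, any base and CC, found in 1.2%. Psmb8 held a GAS match, Psme1 and Erap1 each held an ISRE match, and no match to these letters lay in the windows of Psmb9, Psmb10, Psme2, Tap1 or Tapbp. The windows with a match are shown from 150 bases before to 25 bases after the RefSeq start. The 225 bases between the RefSeq starts of the divergent pair Psmb9 and Tap1 are shown as well. RefSeq starts differ from those of the GENCODE models, so the stretches shown for Psmb8, Psme1 and Erap1 lie within the gene positions given above. The Psmb9 to Tap1 stretch lies within the GENCODE position of Psmb9. All are plus-strand sequences written 5′ to 3′, and capitals mark the motif match.
Psmb8, chr17:34198045-34198219, with the GAS match: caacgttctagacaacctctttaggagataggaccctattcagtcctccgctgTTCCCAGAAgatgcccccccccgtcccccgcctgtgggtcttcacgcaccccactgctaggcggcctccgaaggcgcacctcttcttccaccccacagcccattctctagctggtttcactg
Psme1, chr14:55578344-55578518, with the ISRE match on the minus strand: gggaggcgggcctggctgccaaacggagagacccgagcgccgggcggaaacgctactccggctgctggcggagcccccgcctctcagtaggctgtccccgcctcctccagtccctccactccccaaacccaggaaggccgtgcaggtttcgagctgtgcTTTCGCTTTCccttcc
Erap1, chr13:74639703-74639877, with the ISRE match on the minus strand: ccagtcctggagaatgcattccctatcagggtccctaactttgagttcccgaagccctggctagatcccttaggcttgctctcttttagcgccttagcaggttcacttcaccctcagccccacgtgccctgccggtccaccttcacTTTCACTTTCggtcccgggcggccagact
Psmb9 to Tap1, chr17:34187331-34187555, with no match: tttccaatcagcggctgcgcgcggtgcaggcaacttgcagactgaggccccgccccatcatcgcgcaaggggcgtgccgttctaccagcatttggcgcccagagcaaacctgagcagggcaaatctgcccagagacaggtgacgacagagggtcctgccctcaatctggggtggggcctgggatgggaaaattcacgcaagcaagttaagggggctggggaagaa

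Stimulation raised all 10 genes in both genotypes. The increase was largest for Psme2 and Tap1, between 8.06-fold and 9.90-fold, and smallest for Erap1, at 2.38-fold in KO and 2.61-fold in WT macrophages. The summed level of the 10 genes was 2605 and 2611 CPM in stimulated KO libraries against 548 and 598 CPM in KO libraries with PBS, and 2820 and 2687 CPM in stimulated WT libraries against 581.7 and 543.6 CPM in WT libraries with PBS. Every stimulated library was above every PBS library for each of the 10 genes.

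All 10 passed an adjusted p of 0.05 in edgeR's quasi-likelihood test in both genotypes. Of all tested genes, 39.1% were called in KO macrophages (20.2% higher and 19% lower) and 40.5% in WT macrophages (20.6% higher and 20% lower). The median log2 fold change of the 10 genes was 2.02 in KO and 2.06 in WT macrophages, beside -0.03 and -0.01 over all tested genes. In KO macrophages their log2 fold changes lay above those of 89.0% (Erap1) to 95.9% (Psme2) of tested genes, and in WT macrophages above those of 90.0% (Erap1) to 96.2% (Tap1). Both libraries stimulated were above both with PBS for 35.6% of tested genes in KO and 34.6% in WT macrophages. A change in how many cells express a gene and a change in RNA per cell cannot be told apart in these bulk libraries.

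**Figure D1:**
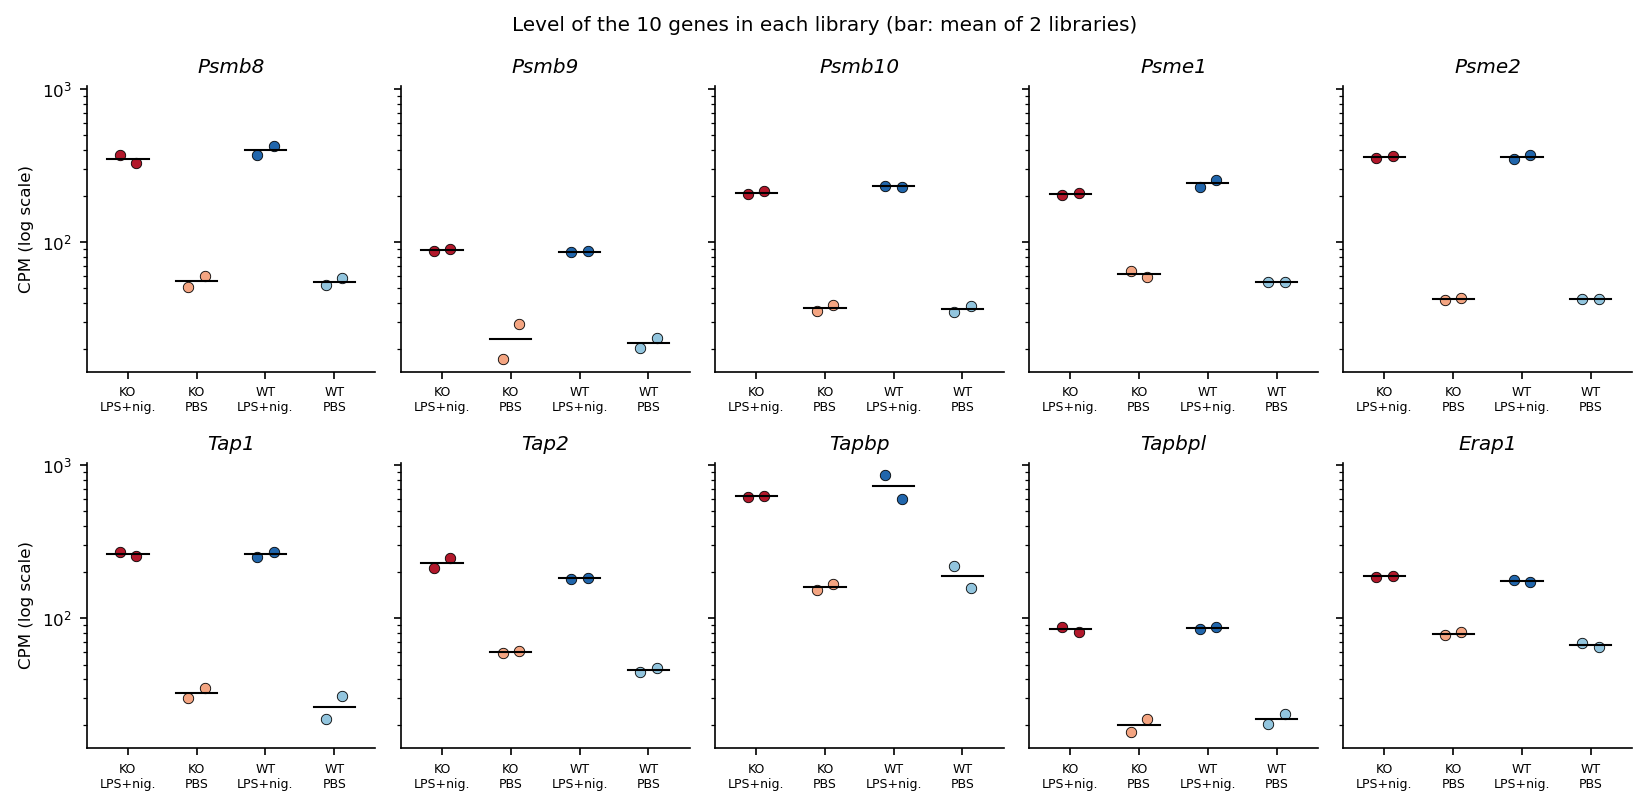
Level of each of the 10 genes in CPM (vertical log axis) in the 2 libraries of each group, 1 panel per gene, with the stimulated group left of the PBS group and KO left of WT; points are libraries. In every panel the 4 stimulated libraries lie above the 4 PBS libraries, and the KO and WT points lie close together within a treatment.

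Among the catalytic subunits, Psmb8 was at 371 and 329 CPM in stimulated KO libraries against 51.1 and 60.3 CPM in KO libraries with PBS. In WT macrophages it was at 372 and 424 CPM after stimulation against 52.2 and 57.9 CPM with PBS. The stimulated and PBS libraries were far apart in both genotypes, with log2 fold changes of 2.65 ± 0.12 in KO (SE, edgeR adjusted p = 8.27e-06) and 2.85 ± 0.12 in WT (adjusted p = 6.27e-06). Psmb10, which replaces Psmb7, was at 205 and 214 CPM in stimulated KO libraries against 35.6 and 38.8 CPM with PBS. In WT macrophages Psmb10 was at 231 and 230.0 CPM after stimulation against 35.0 and 38.4 CPM with PBS. Its replicates were close in all 4 groups, and it rose by 2.49 ± 0.08 in KO (adjusted p = 2.14e-06) and 2.65 ± 0.08 in WT (adjusted p = 1.68e-06) on the log2 scale. Psmb9, which replaces Psmb6, was at 87.5 and 90.2 CPM in stimulated KO libraries against 17.2 and 28.9 CPM with PBS. In WT macrophages Psmb9 was at 85.4 and 87.3 CPM after stimulation against 20.3 and 23.5 CPM with PBS. The KO libraries with PBS were the most uneven pair for this gene, and Psmb9 had the widest error of the 10, with increases of 1.94 ± 0.22 in KO (adjusted p = 0.000572) and 1.98 ± 0.22 in WT (adjusted p = 0.000521).

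The activator subunits Psme1 and Psme2 both rose. Psme2 was at 354 and 366 CPM in stimulated KO libraries against 41.8 and 43.0 CPM with PBS, and at 348 and 371 CPM in stimulated WT libraries against 42.2 and 42.5 CPM with PBS. The values of the genotypes were almost superimposed, and the log2 fold change was 3.09 ± 0.07 in KO (adjusted p = 6.27e-07) and 3.09 ± 0.07 in WT (adjusted p = 5.37e-07). Psme2b, a near-identical copy of Psme2 on chromosome 11, held between 26.9% and 38.0% of the counts of the pair in each library, so the split between them is uncertain. With the counts of both copies summed, the log2 fold change was 2.95 in KO and 2.90 in WT macrophages. Psme1 was at 203 and 208 CPM in stimulated KO libraries against 64.1 and 59.0 CPM with PBS. In WT macrophages it was at 230 and 252 CPM after stimulation against 54.97 and 55.02 CPM with PBS. Psme1 thus rose by 1.74 ± 0.08 in KO (adjusted p = 6.98e-06) and 2.13 ± 0.08 in WT (adjusted p = 3.32e-06), and both KO libraries were above both WT libraries with PBS and below them after stimulation.

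Both transporter subunits rose. Tap1 was at 273 and 256 CPM in stimulated KO libraries against 30.3 and 35.3 CPM with PBS, and at 253 and 274 CPM in stimulated WT libraries against 22.1 and 31.1 CPM with PBS. Its log2 fold change was 3.01 ± 0.17 in KO (adjusted p = 2.00e-05) and 3.31 ± 0.17 in WT (adjusted p = 1.37e-05). Tap2 was at 212 and 247 CPM in stimulated KO libraries against 59.4 and 61.3 CPM with PBS, and at 181 and 184 CPM in stimulated WT libraries against 44.9 and 47.5 CPM with PBS. Both KO libraries were above both WT libraries under either treatment, and the increase was 1.93 ± 0.09 in KO (adjusted p = 8.27e-06) and 1.98 ± 0.09 in WT (adjusted p = 7.49e-06). Per kilobase of exon, the ratio of Tap1 to Tap2 was 0.889 and 0.715 in stimulated KO libraries against 0.352 and 0.398 with PBS. In WT macrophages this ratio was 0.963 and 1.03 after stimulation against 0.340 and 0.451 with PBS. By this ratio, whose level depends on the exon lengths used, the subunits were closer to each other after stimulation than with PBS.

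The editor Tapbp (tapasin), which bridges class I molecules to the transporter, had the highest CPM of the 10 genes in every library. It was at 623 and 629 CPM in stimulated KO libraries against 153 and 168 CPM with PBS, and at 858 and 605 CPM in stimulated WT libraries against 220 and 158 CPM with PBS. The first WT library of each treatment stood above the other 3 libraries of that treatment, and Tapbp rose by 1.96 ± 0.21 in KO (adjusted p = 0.000356) and 1.95 ± 0.20 in WT (adjusted p = 0.000360). Tapbpl, the tapasin-related editor that works outside the loading complex, was at 88.5 and 82.1 CPM in stimulated KO libraries against 18.1 and 22.1 CPM with PBS. In WT macrophages Tapbpl was at 85.1 and 87.8 CPM after stimulation against 20.6 and 23.8 CPM with PBS. The genotypes overlapped under both treatments, and the increase was 2.09 ± 0.13 in KO (adjusted p = 2.52e-05) and 1.96 ± 0.12 in WT (adjusted p = 3.28e-05). Erap1, the aminopeptidase, was at 188 and 190 CPM in stimulated KO libraries against 77.6 and 81.1 CPM with PBS. In WT macrophages Erap1 was at 178 and 173 CPM after stimulation against 68.9 and 65.5 CPM with PBS. It had the smallest increase of the 10, at 1.25 ± 0.06 in KO (adjusted p = 1.33e-05) and 1.38 ± 0.07 in WT (adjusted p = 8.61e-06).

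Some of these genes share exon bases with a neighbour, and whether the counting used strand is not given in the sources used here. Psmb9 and Tap1 overlap by 212 bases on opposite strands, which is 5.8% of the exon length of Psmb9. Erap1 overlaps Cast by 834 bases (11.5% of its exon length), and Cast fell with stimulation by 0.78 ± 0.08 in KO and 0.87 ± 0.08 in WT on the log2 scale (edgeR adjusted p = 0.000257 and 0.000155). Tapbp shares 904 bases (24.9%) with Gm19412 on the opposite strand and 149 bases (4.1%) with Zbtb22 on its own strand, and Zbtb22 differed by -0.01 ± 0.08 in KO and -0.07 ± 0.08 in WT (adjusted p = 0.932 and 0.575).

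**Figure D2:**
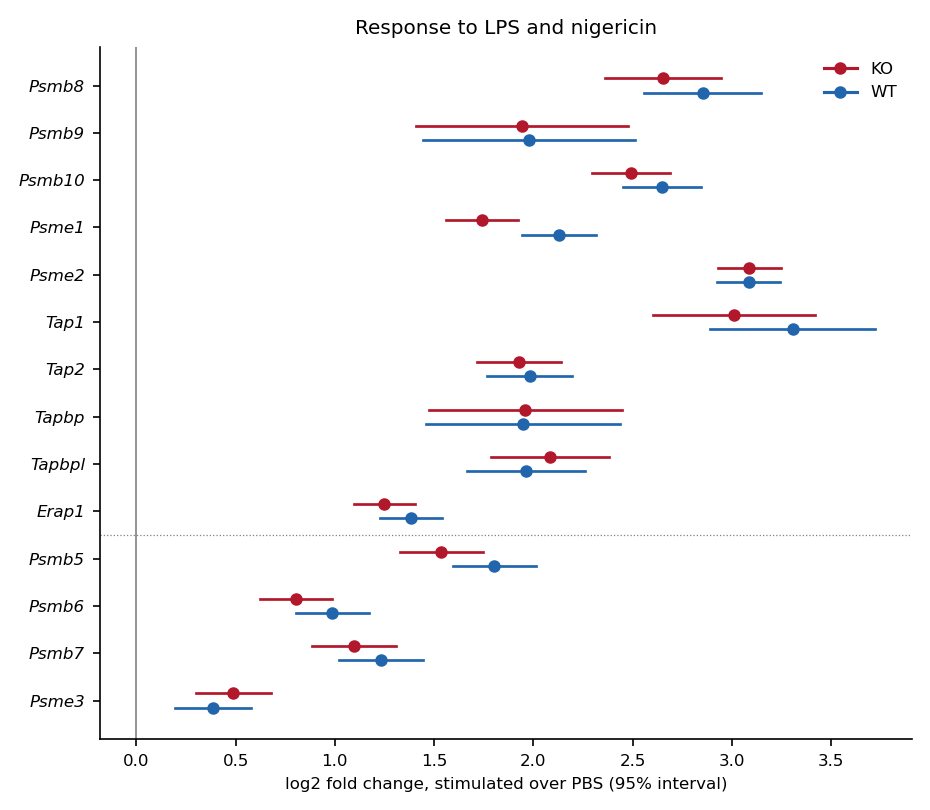
Log2 fold change of stimulated over PBS macrophages (horizontal axis) for the 10 genes and for Psmb5, Psmb6, Psmb7 and Psme3, with KO above WT in each row; bars are 95% intervals and filled points passed an adjusted p of 0.05. All points lie to the right of 0, from 0.39 for Psme3 in WT to 3.31 for Tap1 in WT macrophages.

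Compared per kilobase of summed exon length, Psme2 and Tapbp were the most abundant of the 10 transcripts after stimulation. Psme2 averaged 204 ± 4.86 CPM per kilobase in stimulated KO and 204 ± 9.09 in stimulated WT macrophages (SD, n = 2 each), and Tapbp averaged 173 ± 1.10 and 202 ± 49.4. Psme2 and Tapbp did not differ beyond their spread in WT macrophages. Psmb10 (123 ± 3.92 in KO, 135 ± 0.30 in WT), Psmb8 (104 ± 8.70 and 118 ± 10.97) and Psme1 (93.1 ± 1.53 and 109 ± 7.08) followed, and Psmb8 and Psme1 differed by less than the SD of Psmb8 in WT macrophages. Tap2 (60.7 ± 6.59 and 48.3 ± 0.52) and Tap1 (48.3 ± 2.18 and 48.0 ± 2.70) came next, level with each other in WT macrophages. Tapbpl (36.3 ± 1.93 and 36.8 ± 0.79), Erap1 (25.9 ± 0.18 and 24.1 ± 0.46) and Psmb9 (24.3 ± 0.53 and 23.6 ± 0.38) were lowest, and the last 2 were close to each other. With PBS the order began with Tapbp, at 44.3 ± 2.90 CPM per kilobase in KO and 52.2 ± 12.1 in WT macrophages, and ended with Psmb9 at 6.31 ± 2.26 and 5.99 ± 0.61 and Tap1 at 5.99 ± 0.65 and 4.85 ± 1.16, which did not differ beyond their spread.

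The ratio of each inducible subunit to the subunit it replaces was higher after stimulation in every library. Per kilobase, Psmb8 over Psmb5 was 0.559 and 0.501 in stimulated KO libraries against 0.222 and 0.268 with PBS, and 0.473 and 0.479 in stimulated WT libraries against 0.206 and 0.257 with PBS. Psmb10 over Psmb7 was 2.68 and 2.77 in stimulated KO libraries against 0.971 and 1.10 with PBS, and 2.82 and 2.38 in stimulated WT libraries against 0.925 and 1.01 with PBS. By this ratio, Psmb10 was near Psmb7 with PBS and above it after stimulation. In CPM, KO libraries with PBS had 35.6 and 38.8 for Psmb10 against 73.5 and 70.6 for Psmb7. Psmb9 over Psmb6 was 0.211 and 0.226 in stimulated KO libraries against 0.0746 and 0.123 with PBS, and 0.184 and 0.166 in stimulated WT libraries against 0.0812 and 0.0938 with PBS. Psmb9 was below Psmb6 in all 8 libraries, per kilobase as in CPM. After stimulation the ratios of Psmb9 to Psmb6 and of Psmb8 to Psmb5 were higher in both KO libraries than in both WT libraries. Those of Psmb10 to Psmb7 overlapped, and those of Psme1 to Psme3, given next, were lower in KO. Psmb6 was at 212 and 204 CPM in stimulated KO against 238 and 270 CPM in stimulated WT libraries, and Psmb9 at 87.5 and 90.2 against 85.4 and 87.3 CPM. Psme1 over Psme3, which encodes the subunit of a related nuclear activator, was 2.54 and 2.40 in stimulated KO libraries against 1.08 and 0.996 with PBS, and 3.08 and 3.02 in stimulated WT libraries against 0.913 and 0.907 with PBS. The level of each ratio depends on the summed exon lengths. These were 3381 bases for Psmb8 against 899 for Psmb5, and 3660 for Psmb9 against 1872 for Psmb6. Psmb10 had 1705 bases against 3421 for Psmb7, and Psme1 had 2209 against 2949 for Psme3. The fold change of a ratio with stimulation does not depend on these lengths. The ratios are descriptions and were not tested.

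**Figure D3:**
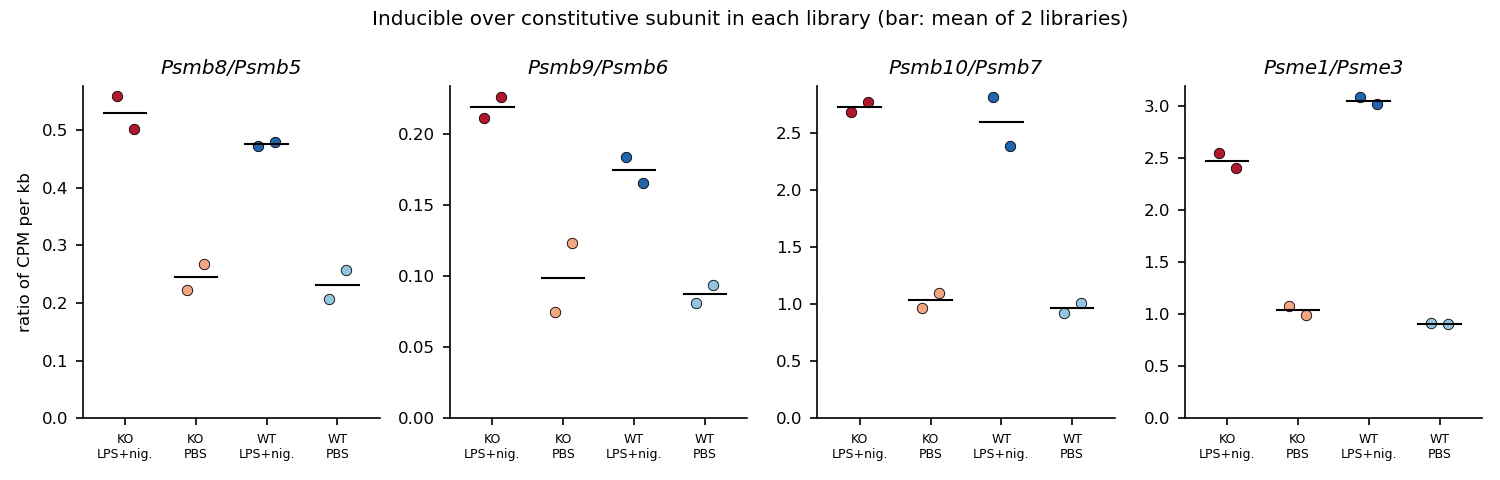
Ratio per kilobase of exon of Psmb8 to Psmb5, Psmb9 to Psmb6, Psmb10 to Psmb7 and Psme1 to Psme3 (vertical axes) in each of the 8 libraries, by group, stimulated left of PBS. In all 4 panels the stimulated libraries lie above the PBS libraries of both genotypes.

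Most of the remaining proteasome genes also rose with stimulation. All 3 constitutive catalytic subunits rose, Psmb5 by 1.54 ± 0.09 in KO and 1.80 ± 0.09 in WT (adjusted p = 2.04e-05 and 1.04e-05), Psmb7 by 1.09 and 1.23, and Psmb6 by 0.80 and 0.99 on the log2 scale. Of the 11 other subunits of the proteasome core, 10 rose in KO and 11 in WT macrophages, with a median log2 fold change of 0.88 and 1.01, among them Psma6 (1.73 and 1.69) and Psma2 (1.10 and 1.14). Of 18 subunits of the regulatory particle, 16 rose and 1 fell in KO, and 16 rose in WT macrophages, with medians of 0.62 and 0.70, led by Psmc5 (1.11 and 1.08). The one that fell was Psmd8 (-0.37 ± 0.08 in KO, adjusted p = 0.0103), a call lost without the first or second stimulated KO library or the second KO library with PBS (adjusted p up to 0.0674). Of 11 tested genes for assembly factors and other activators, 6 rose in KO and 8 in WT macrophages. The counts for these genes and for the regulatory particle changed in both genotypes in some fits with a library left out. Scaled by library size alone, the WT count of assembly factors and other activators that rose was 5. Psmd10, an assembly chaperone of the regulatory particle, rose by 2.05 ± 0.08 in both genotypes, and Pomp, which helps new core particles to mature, rose by 0.77 and 1.01. Psme3 rose by 0.49 ± 0.08 in KO (adjusted p = 0.00298) and 0.39 ± 0.08 in WT (adjusted p = 0.00810), the WT call being lost when libraries were scaled by their size alone (adjusted p = 0.0624).

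Downstream of the transporter, all 8 tested class I chain genes and B2m rose in both genotypes, with a median log2 fold change of 1.69 in KO and 2.03 in WT macrophages. H2-Q6 and H2-Q7, whose sequences are close to each other so that reads may be split between them, rose the most. The KO call of H2-D1 was lost without either stimulated KO library or the first KO library with PBS. With a library left out, its log2 fold change in KO was 0.24 to 0.29. Of 5 chaperones that fold class I chains, 4 rose in both genotypes: Hspa5 (0.98 and 1.15), Calr (0.96 and 1.07), Pdia3 (0.51 and 0.54) and Canx (0.30 and 0.19). The WT call of Canx was lost with library size alone (0.0062, adjusted p = 0.942), without a filter (0.0581), with only the groups compared (0.0988), and without either stimulated KO library, the second stimulated WT library or either WT library with PBS (up to 0.148). Its KO call was lost without the second stimulated KO library (0.0508). Of 6 cytosolic peptidases, which trim or destroy peptides before transport, 3 rose in KO, and 2 rose and 1 fell in WT macrophages. Scaled by library size alone, 1 rose and 1 fell in KO and 2 fell in WT macrophages, and with a library left out the number that rose was 1 to 2 in KO and 0 to 2 in WT macrophages.

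Of 12 transcription factors that act on these genes or on the class I genes, 7 rose and 2 fell in KO, and 6 rose and 1 fell in WT macrophages. Nlrc5, the class I transactivator, was at 108 and 112 CPM in stimulated KO libraries against 27.5 and 32.4 CPM with PBS, and at 97.2 and 80.3 CPM in stimulated WT libraries against 31.6 and 31.4 CPM with PBS. Its increase was 1.87 ± 0.12 in KO (adjusted p = 3.55e-05) and 1.49 ± 0.12 in WT (adjusted p = 9.70e-05). Irf1 and Stat2 also rose in KO macrophages, by 2.53 ± 0.26 and 2.42 ± 0.17. Among the interferon genes and their receptors, 3 rose and 1 fell in KO and 2 rose and 1 fell in WT macrophages. Ifnar2, a chain of the type I interferon receptor, rose by 0.97 ± 0.07 in KO and 0.98 ± 0.07 in WT. Ifng had 124 and 98 counts in stimulated KO libraries and 0 in KO libraries with PBS, and 0 and 4 counts in stimulated WT libraries and 0 in WT libraries with PBS. It was called higher after stimulation in KO (edgeR adjusted p = 0.00727, but 0.112 in DESeq2), and the difference between genotypes after stimulation was not called (adjusted p = 0.0649).

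Markers of other cell types also moved with stimulation. The summed level of the 8 neutrophil markers was 33.7 and 30.4 CPM in stimulated KO libraries against 6.16 and 6.18 with PBS, and 28.1 and 35.5 CPM in stimulated WT libraries against 4.04 and 4.24 with PBS, and Ly6g was at 0. Most of this sum was S100a8, and of the 6 neutrophil markers tested, S100a8 and Camp were called higher and 0 lower in each genotype, while the median log2 fold change of the 6 was -0.86 in both. The 8 T and NK cell markers summed to 6.33 and 7.05 CPM in stimulated KO libraries against 16.4 and 21.5 with PBS, and to 8.06 and 6.57 CPM in stimulated WT libraries against 17.1 and 15.1 with PBS, and Cd3e was at 0. Of the 3 tested, Cd4 was called lower in both genotypes and made up most of the sum, at 5.16 and 5.10 CPM in stimulated KO libraries against 15.6 and 20.8 CPM with PBS, while Lck was at 1.18 and 1.61 CPM against 0.443 and 0.336 CPM in the same groups (adjusted p = 0.217). The 8 dendritic cell markers stayed between 1.42 and 4.32 CPM in all libraries. The 8 fibroblast markers summed to 119 and 117 CPM in stimulated WT libraries against 170 and 191 with PBS, with 5 called lower and 0 higher. In KO libraries they summed to 339.9 and 303 CPM after stimulation against 267 and 285 with PBS, with 3 called higher and 0 lower. Of the 6 B and plasma cell markers tested, 2 were called higher and 2 lower in WT, and 0 higher and 1 lower in KO macrophages. The part of these markers in the responses was not tested.

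The 5 genes whose log2 CPM most resembled the mean profile of the 10 over the 8 libraries, by Pearson correlation among 8633 genes averaging 10 CPM or more, were Gbp10, Ift57, Uba7, H2-T22 and Gbp2. Gbp2, an interferon-induced GTPase, was at 872 and 906 CPM in stimulated KO libraries against 13.7 and 16.5 CPM with PBS, and at 1026 and 1127 CPM in stimulated WT libraries against 13.2 and 15.2 CPM with PBS. Uba7, the activating enzyme for the ubiquitin-like protein Isg15, was at 225 and 218 CPM in stimulated KO libraries against 43.9 and 48.3 CPM with PBS, and at 246 and 234 CPM in stimulated WT libraries against 43.5 and 45.7 CPM with PBS. All 5 shared with the 10 genes a large gap between stimulated and PBS libraries and little difference between genotypes, which follows from how they were chosen.

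The class II genes within 50000 bases of Psmb9, Tap1, Psmb8 and Tap2 on chromosome 17 gave mixed responses. H2-DMa, which encodes a chain of the class II peptide editor, differed by -0.12 in KO (edgeR adjusted p = 0.426) and 0.28 in WT macrophages (adjusted p = 0.0800) on the log2 scale. H2-Ab1, a class II chain, differed by 0.26 in KO (adjusted p = 0.173) and rose by 0.55 in WT (adjusted p = 0.0162). H2-DMb1 differed by 0.29 in KO (adjusted p = 0.0953) and rose by 0.82 in WT (adjusted p = 0.00152), and H2-DMb2 rose by 0.67 in KO (adjusted p = 0.0110) and 0.71 in WT (adjusted p = 0.00880). These 4 had smaller log2 fold changes than Tap2, which had the smallest of its own 4 in KO macrophages, at 1.93. H2-Ob, an inhibitor of the class II editor, rose by 3.85 ± 1.13 in KO (adjusted p = 0.0329) and differed by 2.19 ± 1.15 in WT (adjusted p = 0.173), with wide errors.

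Between genotypes, none of the 10 genes passed an adjusted p of 0.05 under either treatment in edgeR, where 4.92% of tested genes were called after stimulation (2.91% higher and 2.01% lower) and 1.55% with PBS (1.2% higher and 0.355% lower). At an unadjusted p under 0.05, 2 of the 10 were counted under each treatment, near the 19.9% of tested genes after stimulation and 15.4% with PBS. DESeq2 called 1 of the 10 under each treatment, which was Tap2, where it called 9.47% and 5.01% of tested genes, and limma-voom called 0, where it called 5.39% and 1.87%. The median log2 fold change of KO over WT was -0.0079 after stimulation and 0.05 with PBS for the 10 genes, and -0.0045 and 0 over all tested genes.

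Tap2 was the member nearest to a call. It was higher in both KO libraries than in both WT libraries under each treatment, by 0.33 ± 0.09 after stimulation (SE, 95% interval 0.12 to 0.54, edgeR adjusted p = 0.0881) and by 0.38 ± 0.09 with PBS (0.18 to 0.59, adjusted p = 0.101) on the log2 scale. In DESeq2 the adjusted p was 0.0260 after stimulation and 0.0156 with PBS. Erap1 was likewise higher in both KO libraries under each treatment, by 0.10 ± 0.06 after stimulation (-0.05 to 0.26, adjusted p = 0.429) and by 0.24 ± 0.06 with PBS (0.09 to 0.39, adjusted p = 0.147). Psme1 changed side, with a difference of -0.23 ± 0.07 after stimulation (-0.41 to -0.05, adjusted p = 0.155) and 0.16 ± 0.08 with PBS (-0.02 to 0.34, adjusted p = 0.372).

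For the other 7 genes the intervals reached on both sides of 0 under both treatments. Psme2 had the narrowest, with a difference of 0.00 after stimulation (-0.14 to 0.15) and 0.00 with PBS (-0.15 to 0.15), so that a change of Psme2 in KO by more than 0.15 in either direction lay outside the interval. Psmb10 differed by -0.14 after stimulation (-0.32 to 0.04) and 0.02 with PBS (-0.17 to 0.20), and Psmb8 by -0.18 (-0.46 to 0.09) and 0.02 (-0.26 to 0.29). Psmb9 and Tapbp were the least well determined, with intervals of -0.47 to 0.55 and -0.69 to 0.25 after stimulation and of -0.44 to 0.60 and -0.71 to 0.23 with PBS. Tapbpl differed by -0.02 after stimulation (-0.30 to 0.27) and -0.14 with PBS (-0.43 to 0.15), and Tap1 by 0.01 (-0.37 to 0.39) and 0.30 (-0.08 to 0.69).

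After stimulation, both KO libraries were above both WT libraries for 3 of the 10 genes (Psmb9, Tap2 and Erap1) and below them for 3 (Psmb8, Psmb10 and Psme1), where 25% and 25.1% of tested genes did so. With PBS, both were above for 3 (Psme1, Tap2 and Erap1) and below for 0, where the shares were 24.6% and 24%. These counts are near the background.

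A contrast added after the values were seen averaged KO over WT across PBS and stimulation. Tap2 was the one member called, higher in KO by 0.36 ± 0.06 on the log2 scale (95% interval 0.21 to 0.50, edgeR adjusted p = 0.0199), with both KO libraries above both WT libraries under each treatment, where 4.82% of tested genes were called higher. Erap1 was at 0.17 ± 0.05 (adjusted p = 0.0694), and the other 8 members had adjusted p of 0.379 or more. In the same contrast Calr was higher by 0.52 ± 0.04 (adjusted p = 0.00164), Hspa5 by 0.42 ± 0.04 (adjusted p = 0.00355) and Pdia3 by 0.42 ± 0.05 (adjusted p = 0.00416). Since Tap2 was singled out from these libraries, its call is no independent evidence.

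**Figure D4:**
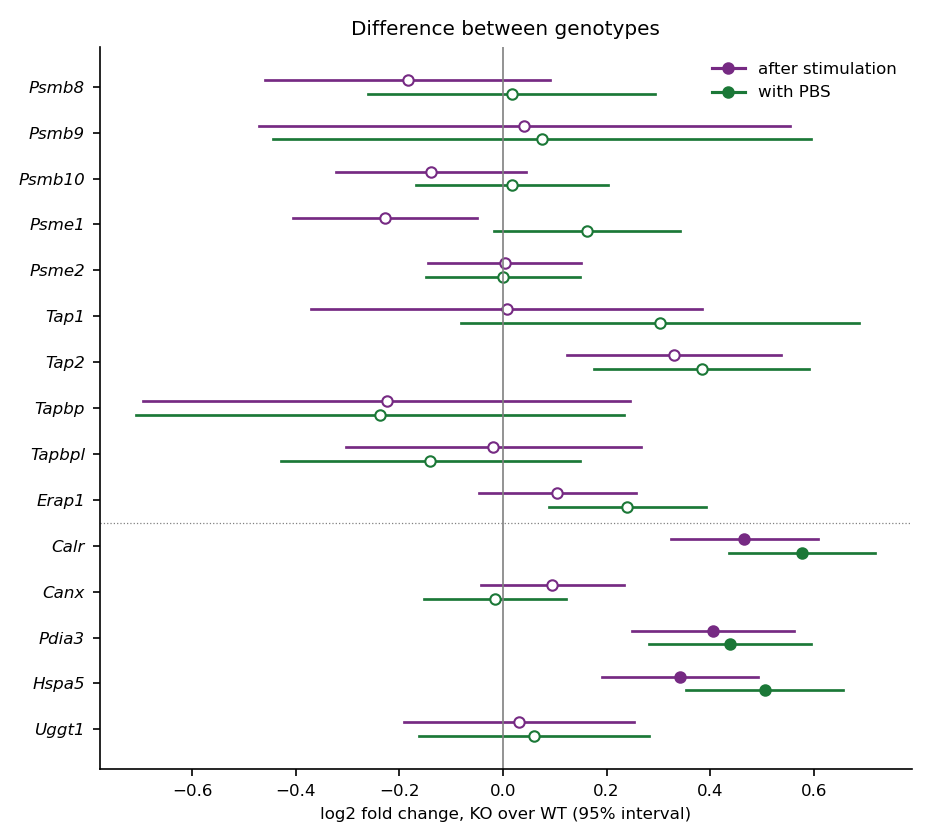
Log2 fold change of KO over WT macrophages (horizontal axis) for the 10 genes and for the chaperones Calr, Canx, Pdia3, Hspa5 and Uggt1, with the value after stimulation above the value with PBS in each row; bars are 95% intervals and open points did not pass an adjusted p of 0.05. All 20 points of the 10 genes are open, while Calr, Pdia3 and Hspa5 are filled under both treatments.

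The difference between the stimulation responses of the genotypes was tested directly, and 0 of the 10 genes passed in edgeR, DESeq2 or limma-voom, where 0.498% of tested genes were called in edgeR (0.103% with a positive and 0.395% with a negative KO minus WT value). DESeq2 called 2.78% of tested genes and limma-voom 0.481%. At an unadjusted p under 0.05, 1 of the 10 was counted, where 10.7% of tested genes were. This was Psme1, whose KO minus WT value was -0.39 ± 0.11 on the log2 scale (95% interval of the difference -0.64 to -0.14, edgeR adjusted p = 0.233). For Erap1 the difference of -0.14 had an interval of -0.35 to 0.08, for Psmb10 -0.16 had one of -0.42 to 0.11, and for Psme2 0.00 had one of -0.21 to 0.21. The intervals for Tapbp (-0.65 to 0.68), Psmb9 (-0.76 to 0.70) and Tap1 (-0.84 to 0.24) left room for larger differences in response.

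Among the chaperones of class I chains, Calr, Pdia3 and Hspa5 were higher in KO under both treatments. Calr (calreticulin), which holds new class I chains, was at 1522 and 1517 CPM in stimulated KO libraries against 1061 and 1139 CPM in stimulated WT libraries, and at 767 and 793 CPM in KO libraries with PBS against 532 and 514 CPM in WT libraries with PBS. Calr was higher in KO by 0.47 ± 0.06 after stimulation (edgeR adjusted p = 0.00988) and 0.58 ± 0.06 with PBS (adjusted p = 0.00907). Pdia3, the disulfide isomerase that is joined to Tapbp, was at 778 and 783 CPM in stimulated KO libraries against 559 and 620 CPM in stimulated WT libraries, and at 545 and 554 CPM in KO libraries with PBS against 403 and 409 CPM in WT libraries with PBS. It was higher in KO by 0.41 ± 0.07 after stimulation (adjusted p = 0.0216) and 0.44 ± 0.07 with PBS (adjusted p = 0.0300). Hspa5, a general chaperone of the endoplasmic reticulum, was higher by 0.34 ± 0.06 (adjusted p = 0.0328) and 0.51 ± 0.06 (adjusted p = 0.0171). Both KO libraries were above both WT libraries for these 3 of the 5 listed chaperones under either treatment. Of all tested genes, 25% did so after stimulation and 24.6% with PBS, so this adds little to the calls. Called higher in KO were 2.91% of tested genes after stimulation and 1.2% with PBS. Canx, which has the same role as Calr but is anchored in the membrane, differed by 0.10 ± 0.06 after stimulation (adjusted p = 0.429).

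Each of these chaperone calls was lost when some single library was left out. After stimulation, Calr and Pdia3 lost theirs without the first or the second KO library of that treatment (adjusted p reaching 0.0819 and 0.134), and Hspa5 lost it without any library except the second stimulated WT one (up to 0.170). With PBS, Calr lost it without the second KO or either WT library with PBS (up to 0.0684), and Pdia3 and Hspa5 without any library except the stimulated WT ones (up to 0.167 and 0.114). Markers of other cell types differed between genotypes as well. The 8 fibroblast markers summed to 339.9 and 303 CPM in stimulated KO libraries against 119 and 117 in stimulated WT libraries, and to 267 and 285 CPM in KO libraries with PBS against 170 and 191 in WT libraries with PBS. The 8 B and plasma cell markers summed to 48.4 and 39.9 CPM in stimulated KO libraries against 11.1 and 14.7 in stimulated WT libraries, and to 51.9 and 59.5 CPM in KO libraries with PBS against 56.0 and 55.6 in WT libraries with PBS, and 6 of the 8 were tested. Members of this sum went in opposite directions with PBS, with Igkc at 21.3 and 21.4 CPM in KO against 4.005 and 2.12 CPM in WT libraries, and Ighm at 28.2 and 35.8 CPM in KO against 51.5 and 53.0 CPM in WT libraries. With PBS, 2 of the 6 tested were called higher in KO (Igkc and Jchain) and 0 lower. Of the 8 fibroblast markers, 2 were called higher with PBS and 0 lower. After stimulation, 4 of the 6 and 6 of the 8 fibroblast markers were called higher in KO and 0 lower. Of all tested genes, 1.2% were called higher with PBS and 2.91% after stimulation. The 10 macrophage markers summed to between 27040 and 28230 CPM in the 4 KO libraries and between 42810 and 48490 CPM in the 4 WT libraries. Lyz2, whose promoter drives the Cre, made up much of this gap, at 14740 to 17510 CPM in KO and 32220 to 35400 CPM in WT libraries. Of the 10 macrophage markers, 3 were called lower in KO under each treatment and 0 higher. Of all tested genes, 2.01% were called lower after stimulation and 0.355% with PBS. The part of these cell type markers in the genotype differences was not tested.

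Beyond the chaperones, the calls between genotypes in the pathway lists fell among the class I chains and the transcription factors. In the class I list, 3 of 8 genes were higher in KO with PBS (H2-K1, H2-Q6 and H2-Q7), where 1.2% of tested genes were. After stimulation 1 was lower (H2-T23, by 0.37 ± 0.07, adjusted p = 0.0360), where 2.01% were. H2-Q6 and H2-Q7 were also called in the difference of responses, where 0.395% of tested genes had a negative call. Their KO minus WT values over the alternatives were -1.60 to -1.44 and -1.405 to -1.23. With only the groups compared, H2-Q6 lost its PBS call (edgeR adjusted p = 0.0515). H2-K1 lost the call without any library except the WT ones with PBS (adjusted p up to 0.181), and H2-T23 without any library except the first stimulated WT one (up to 0.198). Of the 12 transcription factors, Rfx5, a component of the complex that Nlrc5 works through, was higher in KO after stimulation by 0.68 ± 0.14 (adjusted p = 0.0466), a call lost without any library except the second stimulated WT one (up to 0.209). No gene of the constitutive catalytic, core, regulatory particle, assembly, peptidase or interferon lists was called in edgeR between genotypes under either treatment. After stimulation the KO over WT difference was -0.34 ± 0.09 for Psmb5 (adjusted p = 0.0806), -0.29 ± 0.08 for Psmb6 (adjusted p = 0.0901) and -0.22 ± 0.09 for Psmb7 (adjusted p = 0.233), none of which passed.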

How the data were processed

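Per the submitters' processing notes, reads were trimmed with Trimmomatic and aligned to mm10 with Bowtie2, and edgeR was named; the counting tool, its annotation and its strand setting were not stated in the labels. The deposited values were whole-number counts per Ensembl gene in 8 libraries (55032057 to 65487739 counts each), with no normalization by the authors that the file shows. Symbols, exon lengths and positions came from GENCODE M21. Genes were kept with filterByExpr (minimum count 10, minimum total 15; 17470 of 55401 genes), scaled by TMM (factors 0.888 to 1.068) and fitted with 1 coefficient per group over all 8 libraries (4 residual degrees of freedom) in edgeR 4.0.16 under R 4.3.3. The quasi-likelihood F test was run for 5 contrasts, with Benjamini-Hochberg adjustment over all tested genes within a contrast and a threshold of 0.05. The SE is the size of the unshrunken log2 fold change divided by the root of F. The 95% intervals are centred on that unshrunken value. The log2 fold changes given are those of edgeR, which are shrunk towards 0 by a prior count. CPM used TMM-scaled library sizes. DESeq2 1.42.0 and limma 3.58.1 were alternatives, as were other scalings, filters, a replicate block and leaving out each library. The tests were checked on simulated counts.

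The 10 genes and the lists were chosen with earlier results of these data known. All 10 genes are described; from each list up to 4 genes with the smallest adjusted p are named, plus Psmb5, Psmb6, Psmb7 and Psme3, and the most similar genes were the 5 with the highest Pearson correlation. Neighbours and overlapping genes were named by position, and copies by their symbols, without a comparison of sequences. No replicates differed by so little that they could be a repeat of 1 library. With 2 libraries a group, a difference has few degrees of freedom and small effects may go uncalled. Single results for some listed genes are not reported here.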

Additional observations from a re-analysis of the deposited data

How the results depend on the processing

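All 10 genes kept their stimulation calls in both genotypes under every alternative run, the highest adjusted p being 0.00597 in KO and 0.00584 in WT macrophages, both for Psmb9. Between genotypes, the count of members higher in KO was 1 instead of 0 after stimulation with library size alone and with DESeq2, and 1 with PBS with DESeq2; each time it was Tap2, and the cause was not tested. Library size alone moved the median log2 fold change of all genes by -0.08 in KO and -0.18 in WT stimulation, by 0.13 for KO against WT after stimulation and by 0.11 for the difference of responses. It gave 2713 genes higher and 4720 lower after WT stimulation against 3592 and 3490, and 1044 and 236 for KO against WT after stimulation against 508 and 352. DESeq2 called 876 genes with PBS, 1654 after stimulation and 486 for the difference, against 271, 860 and 87 in edgeR. Deviations of same-numbered libraries from their group means were weakly correlated (from -0.015 to 0.101). This cannot settle whether libraries were paired, and the labels do not say. With the replicate block the counts of members called stayed at 10 and 10 for stimulation and 0 elsewhere, and Psme2 with PBS was 0. Of the listed genes called, H2-K1 with PBS (adjusted p = 0.0643) and Rfx5 after stimulation (0.0630) lost the call with the block. Only the groups compared could not be fitted for the difference of responses.

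Changes of sign met no call in either fit. For KO against WT with PBS, Psme2 was -0.0046 with DESeq2 size factors, -0.0045 with DESeq2, -2e-04 without a filter and -0.0388 with Psme2b summed (added after seeing the data). After stimulation, Psmb10 was 1e-04 and Tapbpl 0.12 with library size alone, and Tapbpl 0.0016 with the 5 CPM filter and 0.0014 with only the groups compared. In the difference of responses, Psmb9 was 0.0733 and Tap2 0.0524 with library size alone, and Psmb9 0.0045 with limma-voom. Leaving out 1 library gave, with PBS, Psmb8 -0.11 to 0.13, Psmb9 -0.34 to 0.40, Psmb10 -0.0489 to 0.0776, Psme2 -0.0204 to 0.0207 and Tapbp -0.46 to 0.0217. After stimulation it gave Tap1 -0.0528 to 0.0747, Psme2 -0.0453 to 0.0584, Tapbpl -0.0772 to 0.0335 and Tapbp -0.45 to 0.0464. For the difference of responses it gave Tap2 -0.17 to 0.0499, Psme2 -0.0457 to 0.0704, Tapbp -0.25 to 0.28, Tapbpl -0.0202 to 0.27 and Psmb9 -0.36 to 0.38.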

Other observations

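Of the 5 class II genes tested within 50000 bases of Psmb9, Tap1, Psmb8 and Tap2, 3 were called higher in KO with PBS: H2-Ab1 by 1.26 ± 0.14 (edgeR adjusted p = 0.0108), H2-DMb1 by 0.88 ± 0.12 (adjusted p = 0.0204) and H2-DMa by 0.66 ± 0.11 (adjusted p = 0.0380) on the log2 scale. Of all tested genes, 1.2% were called higher with PBS. H2-DMb2 differed by 0.43 ± 0.15 (adjusted p = 0.242) and H2-Ob by 0.46 ± 1.23 (adjusted p = 0.914). None of the 4 genes that these class II genes flank was called between genotypes with PBS. After stimulation, H2-Ab1 was called higher in KO by 0.97 ± 0.13 (edgeR adjusted p = 0.0127), where 2.91% of tested genes were. H2-DMa, H2-DMb1, H2-DMb2 and H2-Ob were not called after stimulation (edgeR adjusted p from 0.166 to 0.311).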
